A study of Mus musculus with 41 samples.

Results

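The cells described here are the dividing plasmablasts of the mouse small intestine, taken from a matrix of 58067 single cells in which each value is a number of unique molecular identifiers (UMIs), that is, of distinct captured RNA molecules. A cell was a member when it had at least 20 UMIs of Jchain, at least 5 UMIs of Mzb1, Xbp1 and Derl3 together, at least 2 UMIs of Mki67, Top2a and Ccna2 together, and 0 UMIs of the T cell genes Cd3d, Cd3e and Trac. The members were thus chosen by their measured UMIs of these 10 genes, and this gate held 446 cells. A further 4065 cells met the same plasma cell conditions with 0 UMIs of the 3 division genes and are called non-dividing plasma cells, and 397 cells with exactly 1 such UMI belong to neither class. The 3 classes together are the 4908 plasma-gated cells. Because Jchain, the secretory genes and the division genes chose the cells, their levels are a description and no test rests on them.

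The study profiled immune cells of the small intestine by droplet sequencing of transcript 3' ends, in female wild-type BALB/cJ mice 10 weeks old. Food allergy mice had an inflammatory reaction to ovalbumin, a protein of egg white, and control mice were untreated. The lamina propria, the connective tissue under the gut epithelium, was sorted as fractions labelled nonTB (3 food allergy and 3 control libraries, in 2 runs) and IgDLow (1 library of each condition), and the Peyer's patches, which are lymphoid organs in the wall of the gut, were sequenced in 5 runs; the labels do not spell out the fraction names. The matrix holds 27344 cells from food allergy mice and 30723 from control mice, the numbers that the submitters state. Of the 446 dividing cells, 158 came from lamina propria nonTB (116 food allergy, 42 control), 116 from IgDLow (95 food allergy, 21 control) and 172 from Peyer's patches (69 food allergy, 103 control). The labels do not say that libraries of 1 group came from separate animals, so p-values measure the spread between libraries, which may be technical.

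Plasmablasts are B cells that have begun to secrete antibody while still dividing, and plasma cells are their non-dividing successors, in which antibody messenger RNA makes up much of the transcriptome. In the gut most of these cells secrete IgA, whose dimers are held together by the J chain (Jchain) and carried across the epithelium, whereas germinal centres in the Peyer's patches are where B cells divide, mutate their antibody genes and switch class. IgE, the class that arms mast cells, is the antibody of allergic reactions.

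The label was first set against markers that the gate did not use. In lamina propria nonTB, 154 of the 158 cells had 0 to 3 UMIs summed over 8 B cell and germinal centre markers, among them Ms4a1, Pax5, Bcl6 and S1pr2, and their median Jchain was 582 UMIs. The other 4 cells, all from food allergy mice, had 13 to 33 such UMIs and 21 to 26 UMIs of Jchain. In the IgDLow fraction, 72 cells had 0 to 4 marker UMIs with a median Jchain of 854, and 44 cells (40 food allergy, 4 control) had at least 13 with a median Jchain of 36.5. In the Peyer's patches the label went against the data. There 165 of the 172 cells had at least 7 UMIs of the B cell and germinal centre markers, with a median of 31, and a median of 26 UMIs of Jchain. The plasma cell markers Sdc1, Tnfrsf17 and Prdm1 together had a median of 6 UMIs in the nonTB cells, 6.5 in the IgDLow cells and 0 in the Peyer's patch cells. The Peyer's patch cells are therefore called below the dividing cells that passed the gate, and results on dividing plasmablasts come from the lamina propria.

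**Figure D1:**
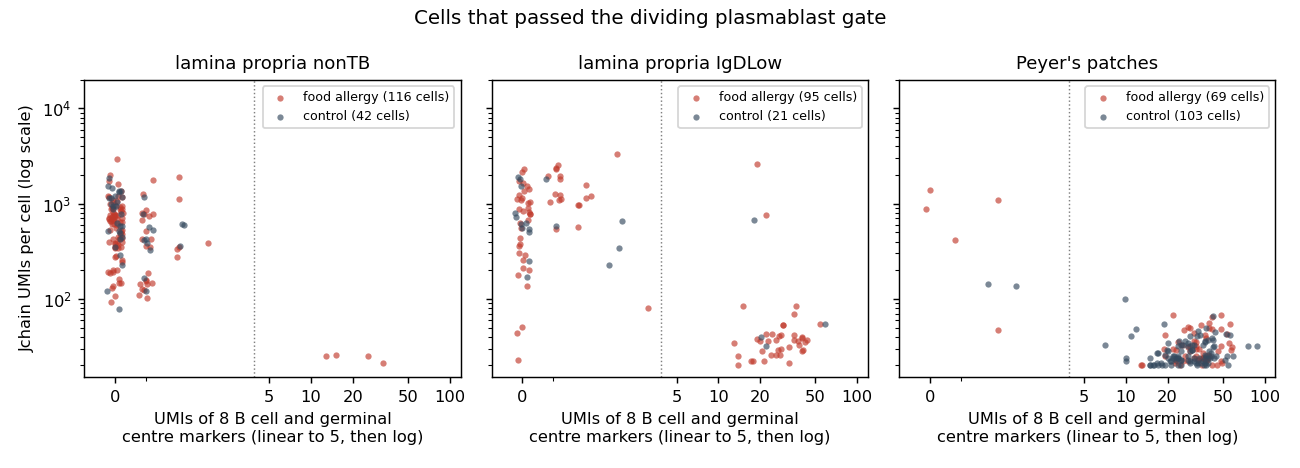
Each point is 1 of the 446 cells that passed the gate, with its UMIs summed over 8 B cell and germinal centre markers on the x axis (linear to 5, then logarithmic) and its Jchain UMIs on the logarithmic y axis; the dotted line separates cells with fewer than 5 marker UMIs. Nearly all nonTB cells lie at the upper left (154 of 158 below 5 marker UMIs), nearly all Peyer's patch cells at the lower right (165 of 172 at 7 or more), and the IgDLow cells form both groups (72 and 44 cells).

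The same split was seen in summed counts, here as plain CPM, a gene's count scaled to a fixed total of UMIs. Dividing cells of the Peyer's patch sums had 0 to 4.16 CPM of Sdc1, the plasma cell surface proteoglycan CD138, against 150 to 195 CPM in the 6 nonTB libraries. Ms4a1, which encodes the B cell antigen CD20, stood at 835 to 1170 CPM in the Peyer's patch sums and at 0 to 71.3 CPM in the nonTB libraries. Igha, the IgA heavy chain constant region, stood at 164 to 2430 CPM in the Peyer's patch sums and at 63700 to 106000 CPM in the nonTB libraries. The ranges of these 3 genes did not overlap between the tissues. Tissue, sort and run differ together, so their parts cannot be told apart.

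Dividing cells had more UMIs than non-dividing ones, and a threshold on UMIs selects deeper cells. The median depth of dividing nonTB cells was 11500 to 17400 UMIs over the 6 libraries, against 9050 to 11600 in non-dividing cells, and the median number of genes was 2090 to 2670 against 1260 to 1650. Of the 446 cells, 19 (4.26%) shared their barcode with a cell of another library of the same run, 2 of them in the lamina propria, and in 0 of these cases was the other cell also a member; in the whole matrix 949 of 58067 cells (1.63%) did so. Free antibody RNA was measured in T cells of the nonTB libraries, which had a median of 3 UMIs of Igha and 1 UMI of Jchain, and 2.3% of them (food allergy) and 1.89% (control) reached 20 UMIs of Jchain. It was higher in the IgDLow library from food allergy mice. There T cells had a median of 10 UMIs of Igha in food allergy and 6 in control, and 10.6% of T cells in food allergy and 2.29% in control reached 20 UMIs of Jchain. Of all cells outside the gate, 20.8% in food allergy and 2.15% in control did so. No doublet caller was run. Mast cell, innate lymphoid, myeloid, stromal or epithelial markers summed to 2 or more UMIs in 55 of 116 dividing cells from food allergy mice (47.4%) and in 13 of 42 from controls (31.0%), against 37.2% and 19.7% of the non-dividing cells.

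The threshold on division genes divides a continuous range. Cells of the nonTB fraction with exactly 2 division UMIs numbered 26 and had 0.443 UMIs of Ube2c and 1.16 of Birc5 per 10000 UMIs, and the 233 cells with exactly 1, just outside, had 0.0527 and 0.0492. The 132 cells with 3 or more had 4.02 and 2.97, and the 2972 cells with 0 had 0.011 and 0.0147. Median Jchain was 583 UMIs at 2 division UMIs and 961 at 1.

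The genes that define the division state are described first, with no test, because the gate selects for them. Every tested member of the G2 and M phase list (24 genes, median log2 change 5.79) and of the S phase list (22 genes, median 3.52) stood higher in dividing than in non-dividing nonTB cells. Ube2c, the ubiquitin-conjugating enzyme that works with the anaphase-promoting complex, had a lowest, median and highest library value of 109, 240 and 355 CPM in dividing cells, against 0.297, 1.13 and 4.77 CPM in non-dividing cells; here and in the gene comparisons below, CPM are scaled by TMM, a factor that sets the bulk of genes level between sums. Rrm2, the ribonucleotide reductase subunit that limits DNA precursor supply, had 84.8, 222 and 248 CPM against 2.38, 4.81 and 8.12 CPM. Birc5, which encodes the mitotic protein survivin, had 145, 219 and 244 CPM against 0.594, 2.21 and 4.77 CPM. For these 3 genes the highest non-dividing library lay below the lowest dividing one.

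The promoters of 4 of these genes are shown as examples of motifs that cell cycle factors are known to bind: Ube2c, Cdc20 (the activator of the anaphase-promoting complex), Ccnb2 (cyclin B2) and the replication helicase subunit Mcm5. Each is the 250 bases before the RefSeq start in build GRCm38.p6, 5′ to 3′ on the strand of the gene. In the Ube2c, Cdc20 and Ccnb2 windows capitals mark the cell cycle homology region letters (TTTGAA or TTCGAA) and the CCAAT box letters (CCAAT), each on either strand; in the Mcm5 window they mark the E2F letters (TTTCGCGC, TTTGGCGC or TTTCCCGC), of which a pair on opposite strands overlaps.
Ube2c, chr2:164769679-164769928, + strand: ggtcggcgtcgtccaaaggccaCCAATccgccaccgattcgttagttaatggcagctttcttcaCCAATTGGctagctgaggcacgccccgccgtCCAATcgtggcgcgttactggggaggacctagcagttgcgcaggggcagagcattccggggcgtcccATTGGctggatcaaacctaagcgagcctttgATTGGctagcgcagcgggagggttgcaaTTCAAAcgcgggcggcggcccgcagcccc
Cdc20, chr4:118437344-118437593, - strand: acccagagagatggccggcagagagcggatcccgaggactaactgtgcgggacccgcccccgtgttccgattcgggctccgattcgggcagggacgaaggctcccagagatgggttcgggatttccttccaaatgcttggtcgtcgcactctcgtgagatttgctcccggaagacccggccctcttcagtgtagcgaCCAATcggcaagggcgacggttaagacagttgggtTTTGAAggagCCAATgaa
Ccnb2, chr9:70421555-70421804, - strand: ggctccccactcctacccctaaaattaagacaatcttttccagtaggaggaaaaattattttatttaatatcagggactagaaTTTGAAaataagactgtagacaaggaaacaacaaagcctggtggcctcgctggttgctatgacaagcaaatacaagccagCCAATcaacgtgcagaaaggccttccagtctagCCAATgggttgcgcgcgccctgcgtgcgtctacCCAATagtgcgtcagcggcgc
Mcm5, chr8:75109259-75109508, + strand: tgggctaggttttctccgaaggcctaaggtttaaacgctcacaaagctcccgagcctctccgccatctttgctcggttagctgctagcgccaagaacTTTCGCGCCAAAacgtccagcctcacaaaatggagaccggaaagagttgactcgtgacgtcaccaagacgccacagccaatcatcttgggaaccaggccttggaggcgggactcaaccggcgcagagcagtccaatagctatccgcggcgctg

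Searched on both strands in all 32851 such windows of RefSeq (27025 genes), the cell cycle homology letters stood in 17.1%, the CCAAT box in 33.8% and the E2F letters in 1.53%. In the 22 windows of the G2 and M phase list the shares were 36.4%, 86.4% and 4.55%, and in the 22 windows of the S phase list 18.2%, 63.6% and 27.3%. The 15 windows of the plasma cell programme list held them in 6.67%, 40.0% and 0.0%. These are counts of letters and not of bound sites.

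The first comparison asked how many plasma-gated cells were dividing in each condition. In the lamina propria nonTB libraries from food allergy mice, 24 of 587 cells (4.09%, 95% Wilson interval 2.76 to 6.01), 23 of 590 (3.90%, 2.61 to 5.78) and 69 of 599 (11.5%, 9.2 to 14.3) were dividing. In the control libraries 14 of 494 (2.83%, 1.7 to 4.7), 12 of 542 (2.21%, 1.27 to 3.83) and 16 of 551 (2.90%, 1.8 to 4.66) were dividing. All 3 food allergy libraries lay above all 3 controls, and food allergy library 3 stood far above the others. The mean share was 6.50% ± 4.35 in food allergy and 2.65% ± 0.38 in control (SD, n = 3 each), a difference of 3.85 percentage points with a two-sided exact permutation p of 0.167, the smallest that 12 arrangements within runs can give. Without food allergy library 3, which was 1 of the 2 nonTB libraries of run 7, the difference was 1.34 points. Within run 6 the shares were 3.99% in food allergy and 2.52% in control, and within run 7 they were 11.5% and 2.90%. With every plasma-gated cell thinned to 5000 UMIs, which left out 198 shallower food allergy cells and 274 control cells, the difference was 3.12 points. The intervals cover counting error only.

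The IgDLow libraries had no replicate, and the Jchain background given above differed between them; its part in these shares was not tested. There 14.5% of plasma-gated cells were dividing in food allergy (interval 12 to 17.4) and 4.62% in control (3.04 to 6.95). With cells of 5 or more B cell and germinal centre UMIs left out, a limit chosen after the values were seen, the shares were 9.24% (55 of 595 cells) and 3.79% (17 of 449).

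In the Peyer's patches the share of gated cells that were dividing varied more between runs than between conditions. It was 41 of 64 cells (64.1%) in food allergy and 57 of 71 (80.3%) in control in run 2, 23 of 62 (37.1%) and 0 of 4 in run 3, and 5 of 78 (6.41%) and 1 of 34 (2.94%) in run 5. In run 1 food allergy gave 0 of 1 cell and control 45 of 90, and in run 4 the counts were 0 of 13 and 0 of 17, which allow shares of up to 23.1% and 17.6%. The mean within-run difference, food allergy minus control, was -5.13 points (two-sided exact permutation p = 0.75 over 32 arrangements, for which the smallest possible p is 0.0625), and it was 6.09 points without run 1. As a share of all cells the difference was 0.0393 points, the opposite sign.

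**Figure D2:**
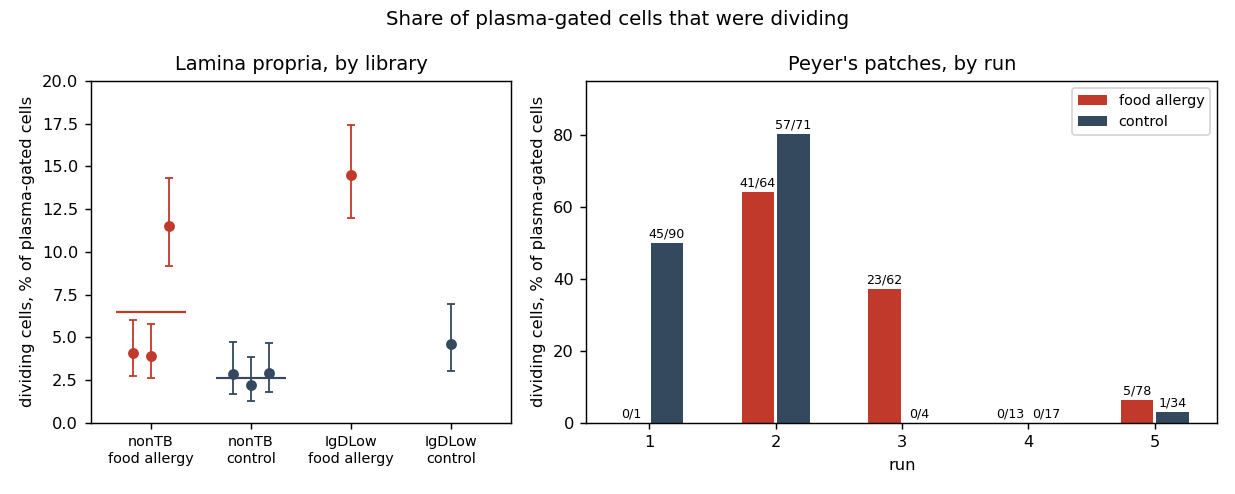
The left panel gives dividing cells as a percentage of plasma-gated cells per lamina propria library with 95% Wilson intervals and the mean of each nonTB group as a line, and the right panel gives the same percentage per run in the Peyer's patches with the counts above the bars. The nonTB food allergy libraries lie at 3.90% to 11.5% and the controls at 2.21% to 2.90%, while the Peyer's patch shares run between 0 and 80.3%.

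Dividing plasmablasts held a smaller part of their RNA as antibody message than non-dividing plasma cells did. Immunoglobulin genes took 42.9, 37.4 and 28.5% of UMIs in dividing cells of the 3 food allergy nonTB libraries and 40.8, 40.2 and 30.7% in those of the 3 controls, against 71.2, 71.6, 61.1, 67.1, 68.8 and 61.7% in the non-dividing cells of the same libraries. The dividing cells were lower in 6 of 6 libraries. TMM factors ran from 0.649 to 1.48 over the 12 sums of this comparison. Changes on the TMM scale, used for the log2 changes below, can therefore differ from plain CPM in size or sign. Of 12 tested immunoglobulin constant regions, 9 were lower and 1, Ighe, was higher (a call lost without food allergy library 1, adjusted p = 0.0787, or 2, 0.0745), with a median log2 change of -1.84, where over all 8759 genes tested outside the gate 14.8% were called higher and 17.8% lower (1298 and 1557 genes, edgeR quasi-likelihood test with library as a block, Benjamini-Hochberg adjusted p under 0.05, median change -0.10). The Ighe call was also lost with DESeq2, at 3 or more division UMIs and with the IgDLow libraries added. Its change was -0.03 with cells of 2 or more other-lineage UMIs left out. Igha had a lowest, median and highest value of 51700, 65100 and 87500 CPM in dividing cells and of 175000, 236000 and 340000 CPM in non-dividing cells, and fell by 1.91 on the log2 scale (SE 0.07, adjusted p = 5.58e-54). Igkc, the kappa light chain constant region, had 137000, 173000 and 222000 CPM against 484000, 556000 and 697000 CPM (log2 change -1.77, SE 0.07, adjusted p = 4.72e-53). Neither gene's ranges overlapped. The share of all genes whose ranges separate between the classes was not counted, here or for the genes below. Ighm, the IgM constant region, fell by 4.04 (SE 0.18) to 133 ± 193 CPM in dividing cells, against 1860 ± 1590 CPM in non-dividing cells (SD, n = 6 each). By the class rule given below, 21 of 2972 non-dividing nonTB cells (0.707%) were IgM cells. Among dividing ones 0 of 158 were, which allows up to 1.9%. How much of the Ighm change rests on these few cells was not tested. Constant regions of 1 class are similar in sequence, so reads may be split among the Ighg genes and among Iglc1, Iglc2 and Iglc3.

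On the TMM scale the plasma cell programme was lower in the dividing cells, with 12 of 16 tested members down and 0 up (median log2 change -0.75). Sdc1 had a lowest, median and highest value of 122, 136 and 152 CPM in dividing cells, against 406, 444 and 537 CPM in non-dividing cells (log2 change -1.72, SE 0.10, adjusted p = 8.16e-32). Tnfrsf17, the receptor BCMA that receives survival signals from APRIL, had 119, 195 and 235 CPM against 246, 298 and 503 CPM and fell by 0.80 (SE 0.11). The surface marker Ly6c2 fell by 1.77 (SE 0.09) and the antigen receptor subunit Cd79a by 1.95 (SE 0.10), each lower in 6 of 6 libraries. The factors that establish plasma cell identity moved less on that scale. Irf4 fell by 0.54 (SE 0.14, lower in 5 of 6 libraries). Prdm1, which encodes Blimp-1, averaged 52.5 ± 20.4 CPM in dividing cells and 64.5 ± 11.2 CPM in non-dividing cells. Its change of -0.38 did not pass (SE 0.17, adjusted p = 0.0721) but did without control library 1 (-0.56, adjusted p = 0.00663). In plain CPM the mean of Irf4 was 97.9 in dividing and 70.7 in non-dividing cells, the opposite order. Prdm1 (68.4 against 42.2) and Tnfrsf17 (241 against 212) were likewise higher in dividing cells. Sdc1 (178 against 302) and Cd79a (320 against 626) were lower on both scales. The direction of the whole list in plain CPM was not tested.

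The secretory machinery was split. Of 24 tested genes of the endoplasmic reticulum and the unfolded protein response, 5 were higher and 11 lower in dividing cells (median log2 change -0.27). Herpud1, a component of endoplasmic reticulum-associated degradation, had 174, 303 and 362 CPM as lowest, median and highest value in dividing cells and 534, 642 and 1260 CPM in non-dividing cells (log2 change -1.49, SE 0.10). Edem2, which acts on misfolded glycoproteins, fell by 1.40 (SE 0.09) and the stress factor Ddit3 (CHOP) by 1.52 (SE 0.23), whereas the chaperone Hsp90b1 (GRP94) rose by 0.22 (SE 0.08, adjusted p = 0.0304), higher in 5 of 6 libraries. The Hsp90b1 call was lost without food allergy library 1 (adjusted p = 0.0845) or 2 (0.0507) and without control library 2 (0.11) or 3 (0.0804), and its change was -0.02 with the IgDLow libraries added.

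Genes of biosynthesis were higher in dividing plasmablasts. Of 13 tested genes of ribosome biogenesis and Myc targets 12 were higher and 0 lower (median log2 change 1.11), and of 15 genes of nucleotide and one-carbon synthesis 13 were higher and 0 lower (median 1.26). Npm1, the nucleolar protein nucleophosmin, had a lowest, median and highest value of 378, 466 and 636 CPM in dividing cells, against 163, 184 and 223 CPM in non-dividing cells (log2 change 1.34, SE 0.10). Ran, the small GTPase of nuclear transport, had 264, 448 and 524 CPM against 66.9, 74.1 and 88.4 CPM (2.43, SE 0.10), and Dctpp1, which removes unwanted deoxynucleotides, had 63.0, 91.5 and 152 CPM against 16.2, 19.4 and 24.9 CPM (2.34, SE 0.16). None of these 3 ranges overlapped between the classes, a separation whose share over all genes was not counted.

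Energy metabolism moved less uniformly. Among 13 tested glycolysis genes 7 were higher and 1 lower (median log2 change 0.55), with Eno1 (enolase) at 105, 144 and 187 CPM in dividing cells and 23.9, 46.0 and 68.0 CPM in non-dividing cells (1.67, SE 0.13). Among 15 genes of oxidative phosphorylation 9 were higher and 2 lower (median 0.35). Of 10 heat shock genes 5 were higher and 1 lower (median 0.42); Hspd1, the mitochondrial chaperonin HSP60, rose by 1.60 (SE 0.16), and Hsp90aa1 rose by 1.49 (SE 0.11), each in 6 of 6 libraries.

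**Figure D3:**
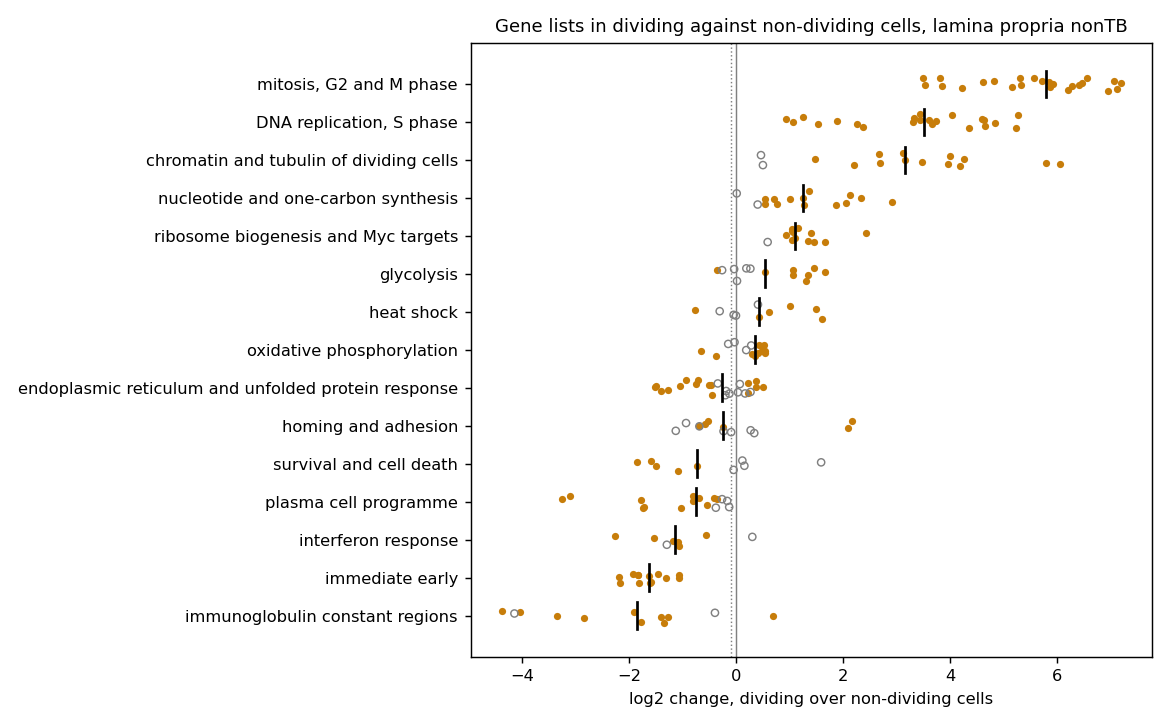
Each point is a gene's log2 change in dividing over non-dividing plasma cells of the lamina propria nonTB libraries, filled where the adjusted p was under 0.05 and open where it was not; the black bar is the list's median and the dotted line the median of all genes tested (-0.10). The cell cycle lists at the top hold genes that the gate selects for and are shown as a description, the ribosome biogenesis and nucleotide lists have medians of 1.11 and 1.26, and the plasma cell programme, immediate early and immunoglobulin lists have medians of -0.75, -1.63 and -1.84.

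Immediate early genes, mostly transcription factors that are switched on within minutes of a stimulus, were lower throughout, with 13 of 13 tested members down (median log2 change -1.63). Fos had a lowest, median and highest value of 413, 604 and 894 CPM in dividing cells, against 1870, 3090 and 3350 CPM in non-dividing cells (log2 change -2.18, SE 0.09). Junb fell by 2.16 (SE 0.12) and Jun by 1.83 (SE 0.10). A list of RNA quality genes moved with them on the TMM scale. There 10 of 10 mitochondrial and nuclear-retained transcripts were lower in dividing cells (median -0.56), with the nuclear RNA Malat1 down by 1.42 (SE 0.08). As a plain share of UMIs, mitochondrial genes had the opposite order. They took 1.86, 1.92 and 2.27% in dividing cells of the food allergy nonTB libraries and 2.62, 2.32 and 2.55% in controls. In non-dividing cells of the same libraries they took 1.36, 1.43, 1.52, 1.81, 1.69 and 1.93%, less in every library. The part of RNA quality in the immediate early result was not tested.

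Survival and interferon genes with a call were lower, and homing genes moved both ways. Of 9 tested survival and cell death genes 5 were lower and 0 higher; they included Bcl2 (-1.59, SE 0.21) and Mcl1 (-1.08, SE 0.12), which restrain apoptosis, and Bcl2l11 (BIM, -1.50, SE 0.17) and Bbc3 (PUMA, -1.84, SE 0.39), which promote it. Of 8 interferon response genes 6 were lower and 0 higher, with the tetherin gene Bst2 at 95.3 ± 15.7 CPM in dividing cells and 221 ± 40.8 CPM in non-dividing cells (SD, n = 6 each; -1.18, SE 0.12). Among 13 homing and adhesion genes 2 were higher and 4 lower. Cxcr4, the receptor for the retention chemokine CXCL12, had 25.2, 36.0 and 76.6 CPM as lowest, median and highest value in dividing cells and 7.15, 9.29 and 12.6 CPM in non-dividing cells (2.09, SE 0.23), with no overlap. S1pr1, the receptor for tissue exit, rose by 2.17 (SE 0.47) in 5 of 6 libraries, at low levels of 9.25 ± 9.13 CPM in dividing cells and 1.93 ± 1.94 CPM in non-dividing cells. On the TMM scale the gut homing receptors Ccr10 (-0.69, SE 0.10), Itgb7 (-0.59, SE 0.13) and Ccr9 (-0.52, SE 0.15) fell in 6 of 6 libraries. In plain CPM their means were higher in dividing than in non-dividing cells. Ccr10 averaged 322 ± 87.3 against 259 ± 77.3, Itgb7 125 ± 47.8 against 95.1 ± 27.2 and Ccr9 78.5 ± 21.2 against 58.8 ± 9.07 (SD, n = 6 each). With cells of 2 or more other-lineage UMIs left out, which kept 8 sums, S1pr1 (1.58, adjusted p = 0.0637), Itgb7 (-0.39, 0.128) and Ccr9 (-0.50, 0.0833) no longer passed.

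Among genes outside these groups, Slpi, a secreted inhibitor of leukocyte proteases, had 293, 448 and 698 CPM in dividing cells and 2030, 2440 and 3360 CPM in non-dividing cells as lowest, median and highest value (log2 change -2.47, SE 0.09). Prg2, known as an eosinophil granule protein, averaged 5.87 ± 4.23 CPM in dividing cells and 97.8 ± 37.9 CPM in non-dividing cells (-4.03, SE 0.25), and the calcium channel subunit Cacna1s fell by 2.38 (SE 0.13). All 3 were lower in 6 of 6 libraries. When non-dividing cells were matched 1 to 1 to dividing cells on total UMIs, which left 2857 genes to test, 583 genes were higher and 536 lower in dividing cells, with a median change of 0.04.

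**Figure D4:**
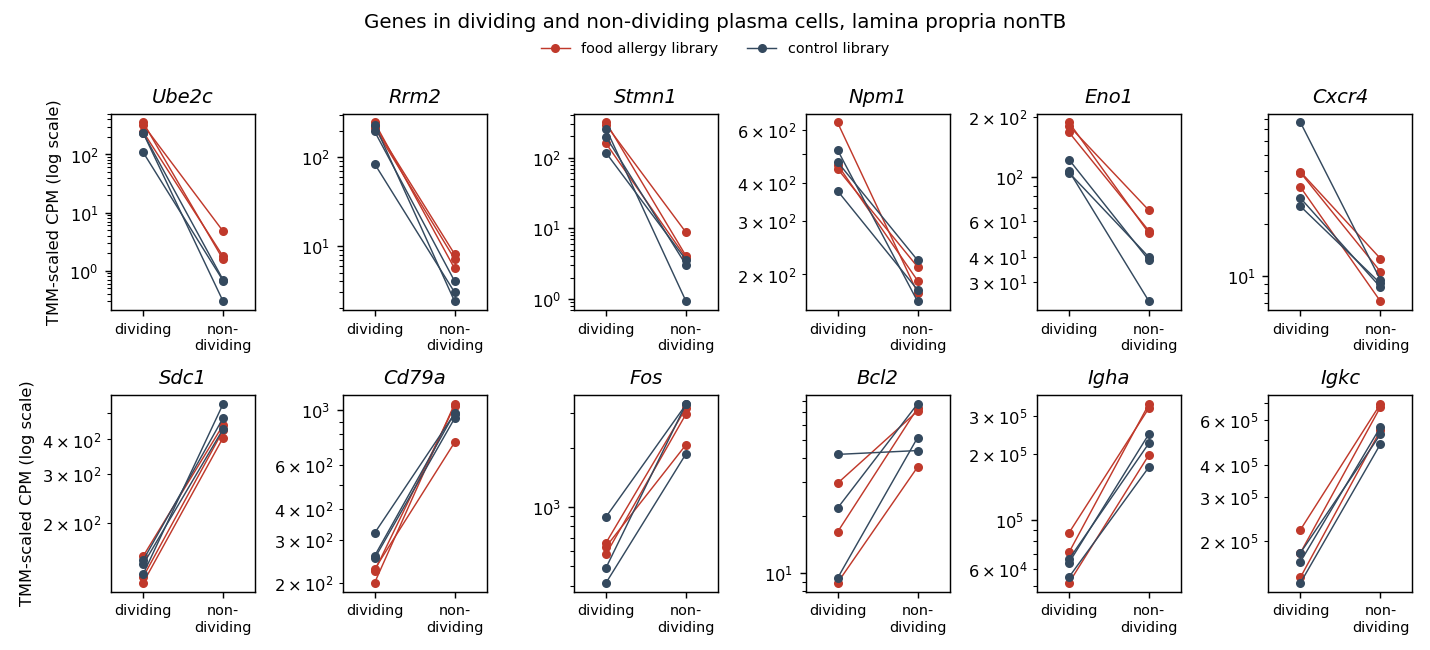
Each line joins the 2 classes of 1 lamina propria nonTB library, dividing cells on the left and non-dividing plasma cells on the right, as TMM-scaled CPM on a logarithmic axis. Ube2c, Rrm2 and Stmn1 are shown as a description because the gate selects for division; Npm1, Eno1 and Cxcr4 were higher and Sdc1, Cd79a, Fos, Bcl2, Igha and Igkc lower in dividing cells in 6 of 6 libraries.

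The antibody class of the dividing plasmablasts was read per cell from the heavy chain constant region with the most UMIs, at least 3 UMIs and 2 times the next class. IgA was the class of 23 of 24, 23 of 23 and 64 of 69 dividing cells in the food allergy nonTB libraries, and of 14 of 14, 12 of 12 and 15 of 16 in the controls. The mean share was 96.2% ± 3.64 in food allergy and 97.9% ± 3.61 in control (SD, n = 3 each), a difference of -1.72 points that did not exceed the spread (two-sided exact permutation p = 0.5, 12 arrangements, smallest possible 0.167). In non-dividing cells 1487 of 1523 (97.6%) in food allergy and 1438 of 1449 (99.2%) in control were IgA. In the IgDLow fraction, with its higher free Igha in food allergy, 76 of 95 dividing cells (80.0%) in food allergy and 20 of 21 (95.2%) in control were IgA. The dividing cells of the Peyer's patches were mostly of another class, with 113 IgG, 27 IgM and 10 IgA cells and 22 without a class among 172.

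IgE message was found in dividing plasmablasts of food allergy mice. Ighe reached 3 or more UMIs, a limit chosen after the values were seen, in 1 of 24, 2 of 23 and 6 of 69 dividing nonTB cells of the 3 food allergy libraries (9 of 116, 7.76%, 279 UMIs in all) and in 0 of 42 control cells, which allows a share of up to 7.14%. In non-dividing cells it did so in 8 of 528 (1.52%), 5 of 530 (0.943%) and 18 of 465 (3.87%) food allergy cells and in 4 of 1449 control cells, all 4 from library 1. The IgDLow fraction gave 3 of 95 dividing cells in food allergy and 0 of 21 in control. As background, 0 of 87 T cells of the food allergy nonTB libraries had any Ighe UMI, 7 of 6220 cells outside the gate (0.113%) had one, and none of these 6220 reached 3. The 12 lamina propria cells had 9 to 53 Ighe UMIs (median 34) beside 519 to 4145 UMIs of Igha (median 1230), and Igha exceeded Ighe in 12 of 12. All 12 had UMIs of Sdc1 or Prdm1, and 1 had a UMI of Fcer1a, the IgE receptor subunit.

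The second comparison asked which genes differed in dividing plasmablasts between food allergy and control. Of 2749 genes tested over the 3 libraries of each condition with run as a covariate, 3 were higher in food allergy (0.109% of those tested) and 8 lower (0.291%), 0.4% in all, with a median log2 change of 0.01 over all genes. The edgeR test gave 223 genes at an unadjusted p under 0.05. Immunoglobulin genes made up 5 of the 11 calls, and among 10 tested constant regions 2 were higher and 2 lower. Igha (log2 change 0.00) and Igkc (0.01) were not among them.

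Ighe had 143, 113 and 167 CPM in the 3 food allergy libraries and 0 CPM in the 3 controls (adjusted p = 1.06e-06). Its summed level was 158 plain CPM in food allergy, and 2 cells held 32.6% of its UMIs. A floor of 3 counts over the control group would be 4.94 CPM, but it treats UMIs as independent. The food allergy UMIs lay in 12 of 116 cells, so no least fold change is given. By cells with 3 or more Ighe UMIs, food allergy had 7.76%, and 0 of 42 control cells allow up to 7.14%. Ighm had 143, 631 and 153 CPM in food allergy and 0, 0 and 60.8 CPM in control (log2 change 3.29, SE 0.66, adjusted p = 0.0252), with 49.0% of its 441 food allergy UMIs in 2 cells. The Ighm call was lost with DESeq2 (adjusted p = 0.344), with no run term (0.142), and at 50 or more Jchain UMIs or with B cell and germinal centre-marked cells left out (0.0543 each). With DESeq2 Iglc2 (0.223) and Igkv12-44 (0.444) were not called either. For Ighe and Ighm the groups did not overlap.

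The lambda and IgG3 constant regions stood lower in food allergy, and a few control cells carried most of their UMIs. Iglc2, a lambda light chain constant region, had 1250, 1110 and 1610 CPM in food allergy and 21100, 20300 and 1980 CPM in control (log2 change -3.00, adjusted p = 0.00319), and 2 control cells held 75.3% of its 7266 control UMIs. Ighg3 had 0, 0 and 0.863 CPM in food allergy and 28.9, 53.0 and 175 CPM in control (adjusted p = 1.06e-06), that is, 1 UMI in food allergy and 62 in control, a ratio of plain CPM of 0.00555 (exact counting interval 0.000138 to 0.0321), with 90.3% of the control UMIs in 2 cells. Ighg1, whose product is the main IgG of type 2 responses in mice, had 1820, 318 and 2990 CPM in food allergy and 168, 6.62 and 1710 CPM in control, overlapping groups that did not pass (log2 change 2.21, adjusted p = 0.0963). Ighg1 did pass without food allergy library 1 (1.21, adjusted p = 0.000489) or 3 (3.54, 2.06e-14). It also passed without control library 3 (3.58, 6.04e-11) and with no filter on low counts (2.34, 1.13e-33). With other-lineage cells left out the log2 change of Ighg1 was 5.89. In that fit the only control was library 2, which had the lowest Ighg1 of the controls (6.62 CPM). Igkv12-44, a kappa variable segment that falls outside the naming rule and was chosen after its values were seen, had 34.2, 72.3 and 54.4 CPM in food allergy and 5.79, 13.2 and 10.7 CPM in control (log2 change 2.41, adjusted p = 0.049). Without food allergy library 2 neither Ighm (adjusted p = 0.225) nor Iglc2 (0.402) was called, without control library 1 Ighm was not (0.275), and Igkv12-44 lost its call when food allergy library 3 (0.226) or either of the control libraries 1 (0.255) and 3 (0.0867) was left out. At 3 or more division UMIs neither Iglc2 nor Igkv12-44 was called. Igkv12-44 was also not called at 50 or more Jchain UMIs or with B cell and germinal centre-marked cells left out.

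Txnip, which encodes a thioredoxin-binding protein that limits glucose uptake, had 34.2, 5.79 and 16.4 CPM in dividing cells of food allergy mice and 156, 113 and 165 CPM in those of controls (log2 change -3.04, SE 0.36, adjusted p = 3.62e-05). At least 1 Txnip UMI was present in 22 of 116 food allergy cells (19.0%) and in 30 of 42 control cells (71.4%), so the difference was spread over many cells. The groups did not overlap in non-dividing cells either, with 45.1, 39.2 and 27.3 plain CPM in food allergy and 106, 113 and 249 plain CPM in control; the interaction, which tests whether the condition difference itself differed between dividing and non-dividing cells, was -0.84 (adjusted p = 0.785). In the IgDLow fraction Txnip had 23.8 plain CPM (exact Poisson interval 17.3 to 32.1) in food allergy and 125 (92.2 to 166) in control. In run 2 of the Peyer's patches, the only run with 10 or more dividing cells of both conditions, it had 43.4 CPM (30.5 to 59.8) in food allergy and 25.6 (17.0 to 37.1) in control, the opposite order.

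The other 5 genes that were lower had smaller changes. Fosb, an immediate early factor and the 1 member called among 11 tested of that list, had 90.3, 69.4 and 70.8 CPM in food allergy and 307, 106 and 218 CPM in control (log2 change -1.49, adjusted p = 0.0185). Dusp5, a nuclear phosphatase of ERK, had 37.4, 63.7 and 74.2 CPM against 232, 86.0 and 179 CPM (-1.47, adjusted p = 0.0262). Ly6d, a surface protein of the B lineage, had 286, 278 and 65.6 CPM against 434, 516 and 419 CPM (-1.40, adjusted p = 0.0185). Ubald2 had 131, 104 and 125 CPM against 261, 179 and 272 CPM (-1.0, adjusted p = 0.0461), and the mitochondrial gene mt-Nd1 had 1710, 1940 and 2190 CPM against 2950, 2690 and 3220 CPM (-0.60, adjusted p = 0.049). None of these 5, which were picked because they were called, overlapped between the groups. All 5 calls were lost at 50 or more Jchain UMIs, with no run term, and with B cell and germinal centre-marked cells left out, which takes out 4 food allergy cells. DESeq2 did not call Dusp5 or Ubald2. At 3 or more division UMIs Fosb, Dusp5, Ubald2 and mt-Nd1 were not called. All 5 calls were also lost without food allergy library 2 (adjusted p 0.185 for Ly6d to 0.227 for Fosb and Ubald2). Without control library 1 the calls of Fosb (0.255), Dusp5 (0.259), Ubald2 (0.255) and mt-Nd1 (0.255) were lost, without control library 3 those of Ly6d (0.316), Ubald2 (0.366) and mt-Nd1 (0.0806), without food allergy library 3 those of Ly6d (0.181) and Ubald2 (0.228), and without food allergy library 1 that of mt-Nd1 (0.0583). In non-dividing cells Dusp5 had 104, 111 and 101 plain CPM in food allergy and 174, 188 and 233 in control. Fosb, Ubald2 and mt-Nd1 were likewise lower in food allergy there, without overlap. Ly6d had 225, 281 and 108 in food allergy and 296, 267 and 348 in control, which overlap. The share of all genes that separate in this way was not counted, and these sums come from the same libraries.

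Several of the gene groups set out above for dividing against non-dividing cells gave no call between the conditions. Others did: 2 of 10 immunoglobulin constant regions were higher and 2 lower, and Fosb, 1 of 11 immediate early genes, and mt-Nd1, 1 of 10 RNA quality genes, were lower. Of 19 tested G2 and M phase genes 0 were called (median log2 change 0.42), of 18 S phase genes 0 (0.17) and of 12 plasma cell programme genes 0 (-0.18). Likewise, of 22 endoplasmic reticulum genes 0 (-0.05), of 10 ribosome biogenesis genes 0 (0.11) and of 8 homing genes 0 (-0.02). Over all 2749 genes tested 0.4% were called, so lists of this size would rarely hold a call. With 42 control cells the depth limits what could be detected. Mast cell transcripts moved with the condition: their level is the sum of 9 markers. It was 44.6 to 1200 plain CPM in dividing cells of the food allergy libraries (1353 UMIs, 0 of 9 at 0) and 0 to 5.45 in those of the controls (2 UMIs, with Mcpt1, Mcpt2, Mcpt4, Cma1, Tpsb2, Fcer1a and Ms4a2 at 0). In non-dividing cells it was 161 to 503 in food allergy and 5.55 to 6.63 in control. With every cell of 2 or more other-lineage UMIs left out, 4 sums and 1 residual degree of freedom remained. Control libraries 1 and 3 fell below 10 cells, so control library 2 was the only control. Log2 changes there were 8.87 for Ighm, -4.52 for Iglc2, 5.80 for Ighe, -2.59 for Txnip and -1.20 for Dusp5. They were -0.73 for Ly6d, -0.47 for Fosb, -0.47 for mt-Nd1 and -0.12 for Ubald2. Apart from Ighm and Iglc2 none of these genes kept its call. The loss of these cells and the loss of control libraries cannot be told apart. RNA quality genes summed to 26300 to 33000 plain CPM in food allergy and 33700 to 40200 in control. The part of RNA quality in these differences was not tested.

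**Figure D5:**
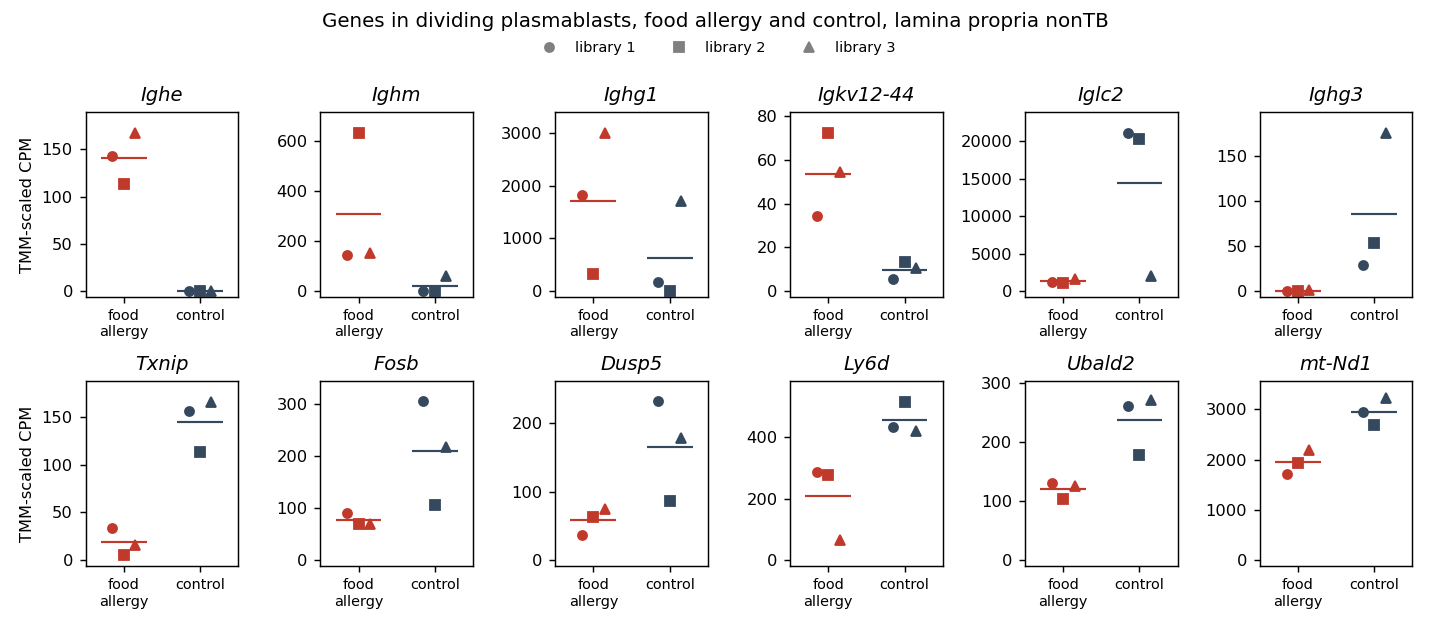
Each point is the TMM-scaled CPM of dividing plasmablasts in 1 lamina propria nonTB library, food allergy on the left and control on the right of each panel, with the group mean as a line and the library number as the symbol. Ighe, Ighm and Igkv12-44 lie higher and Iglc2, Ighg3, Txnip, Fosb, Dusp5, Ly6d, Ubald2 and mt-Nd1 lower in the 3 food allergy libraries; Ighg1 overlaps and did not pass.

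The third comparison asked where the change with division differed between the conditions. Of 8759 genes tested, the interaction was positive for 6 (0.0685%) and negative for 12 (0.137%), and 7 of the 18 were immunoglobulin constant regions. Rgs1, a regulator of G protein signalling that dampens chemokine responses, had 64.0, 37.4 and 49.5 CPM in dividing cells and 45.3, 55.6 and 40.2 CPM in non-dividing cells of the food allergy libraries, and 42.0, 84.4 and 189 CPM in dividing cells and 11.4, 23.8 and 15.1 CPM in non-dividing cells of the controls (interaction -2.57, SE 0.32, adjusted p = 7.21e-12). Dividing cells were thus higher than non-dividing ones in 3 of 3 control libraries and in 2 of 3 food allergy libraries. Cited2, a transcriptional coregulator, had 91.1, 145 and 101 CPM in dividing cells and 456, 480 and 317 CPM in non-dividing cells of food allergy mice, and 126, 225 and 230 CPM in dividing cells and 245, 246 and 233 CPM in non-dividing cells of controls (-1.54, SE 0.22, adjusted p = 2.65e-09). For Cited2, dividing cells were lower than non-dividing ones in 3 of 3 libraries of both conditions, by more in food allergy. Without food allergy library 2 the test called 12 genes and without control library 2 it called 11.

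Among the gated cells of the Peyer's patches, 3 pairs of sums allowed a test of dividing against non-dividing cells. The classes differed in make-up over all Peyer's patch libraries. There 165 of 172 dividing and 73 of 205 non-dividing cells had 5 or more B cell and germinal centre UMIs. IgA was the class of 5.81% of the dividing and 52.7% of the non-dividing cells. Division and cell type thus differ together here and cannot be told apart. Of 3994 genes 405 were higher (10.1%) and 423 lower (10.6%), with a median of 0.00; without the control sum of run 1 the test called 180 genes, and without the food allergy sum of run 2 it called 365. The secretory programme was lower in the dividing cells: 9 of 10 tested plasma cell programme genes (median log2 change -2.96), 19 of 21 endoplasmic reticulum genes (-1.60) and 9 of 9 immunoglobulin constant regions (-4.10) were lower, and 0 of these 3 lists' members were higher. Sdc1 had 3.64, 2.02 and 0 CPM in dividing cells and 207, 204 and 39.3 CPM in non-dividing cells of the 3 sums (-6.13, SE 0.43), and Igkc had 7400, 15400 and 7180 CPM against 200000, 404000 and 65700 CPM (-4.23, SE 0.24). Ribosome biogenesis genes were higher for 8 of 12 (median 0.88), and Ran stood at 1110 ± 67.2 CPM in dividing cells and 363 ± 57.5 CPM in non-dividing cells (SD, n = 3 each; 1.60, SE 0.17). Germinal centre genes gave 0 calls of 7 tested (median 0.02).

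Between food allergy and control the dividing cells of the Peyer's patches could be set side by side in run 2 alone, with no test. Igha had 2430 plain CPM in food allergy and 256 in control, Ighm 907 and 473, Ighg1 1230 and 1480, and Ighg3 63.3 and 0.916, for Ighg3 the opposite order to the nonTB libraries and with 1 UMI in control. In the IgDLow fraction of the lamina propria, also with 1 library a condition, dividing cells had 63.8 plain CPM of Ighe in food allergy and 0 in control. The food allergy UMIs lay in 3 of 95 cells, and 0 of 21 control cells allow a share of up to 14.3%, so no least fold change is given. There Ighg1 had 1370 CPM in food allergy and 245 in control, Igkv12-44 36.0 and 10.4, Ly6d 42.1 and 182, Ighg3 5.55 and 130, and Ighm 479 and 404. Without the cells of 5 or more B cell and germinal centre UMIs, Ighm in the IgDLow fraction had 63.4 CPM in food allergy and 332 in control, the opposite order to the nonTB libraries.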

How the data were processed

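The deposited matrix holds UMI counts per gene and cell, made by the authors; per the submitters' processing notes the tools named are bcl2fastq, Bowtie2, RSEM and Cell Ranger with build mm10, whose versions and roles are not given in the sources used here. Its 58067 cells come from 27 libraries analysed here and have at least 501 UMIs each; a Peyer's patch food allergy library numbered 1 was not analysed here, and the cultured cells of the series were not used. Runs are numbered in order of the dates in the labels. Members, gene lists and tests were chosen with earlier results of these data known.

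UMIs of dividing and of non-dividing cells were summed per library (lamina propria) or per run and condition (Peyer's patches), and sums of fewer than 10 cells were left out. Genes that passed edgeR's filterByExpr were tested with edgeR 4.0.16 in R 4.3.3 (TMM scaling, quasi-likelihood test, Benjamini-Hochberg adjustment over all genes tested, threshold 0.05), with run as a covariate for food allergy against control and the library as a block for dividing against non-dividing; the 10 gate genes stayed out of these last fits. The fits were first tested on simulated data. Shares were compared by exact permutation of condition within runs (scipy 1.17.1); intervals and limits cover counting error only. In the Peyer's patches only 1 run had 10 dividing cells in both conditions, so condition values there have no test.

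Genes were named by a rule: in each comparison the 8 largest rises and 8 largest falls among calls with a mean of at least 50 CPM and the same direction in every run or library, up to 3 called members of each of 23 gene lists (where none was called, the member with the highest mean), and every immunoglobulin constant region. Sdc1, Tnfrsf17, Irf4, Prdm1, Hsp90b1, Npm1, Jun, Mcl1, Itgb7, Ccr9 and Igkv12-44 were named in addition after their values were seen. Alternatives were DESeq2 1.42.0, no filter on low counts, scaling without immunoglobulin genes, stricter gates (3 division UMIs, 50 Jchain UMIs), cells with other-lineage UMIs left out, cells with B cell or germinal centre UMIs left out (chosen after seeing the data), matching or thinning for depth, and each library or run left out.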

Additional observations from a re-analysis of the deposited data

Results flagged for a closer look

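For 18 genes the change between dividing and non-dividing lamina propria nonTB cells differed between the conditions by the edgeR interaction test; the values below are the log2 change with division in food allergy minus that in control. It was higher in food allergy for Ighm (2.63), Iglc3 (1.38), the tubulin gene Tuba1a (1.01), Crip1 (0.67), Ighe (7.65) and Hmces (1.87). It was lower in food allergy for Ighg3 (-4.81), Rgs1 (-2.57), Iglc2 (-2.10), the replication factor gene 2810417H13Rik (-1.83), Cited2 (-1.54), the annexin gene Anxa2 (-1.34), Ighg2c (-4.46), Ighg1 (-0.88), Chst1 (-7.01), Igkv3-5 (-2.51), the chemokine gene Ccl4 (-2.33) and the histone gene Hist1h2bc (-2.02). Ighe had 0 UMIs in dividing control cells and Ighg3 had 1 UMI in dividing food allergy cells, so their fitted values depend on the prior count and are no measure of size. Rgs1 and Cited2 were called in every one of 13 alternatives, and of the 13 named genes with a call no other was.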

How the results depend on the processing

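The difference in the dividing share of lamina propria nonTB cells kept its direction under 13 alternatives and ran between 1.34 and 5.15 points with 1 library left out. The Peyer's patch difference turned to 0.0393 points as a share of all cells and ran between -15.7 and 6.09 with 1 run left out. The IgA share difference turned to 0.568 points with B cell or germinal centre-marked cells left out and ran between -3.80 and 0.00 with 1 library left out; the cause of these changes was not tested.

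Food allergy against control gave 11 calls, against 6 with DESeq2, 56 with no filter on low counts (11942 genes tested), 6 at 3 or more division UMIs, 4 at 50 or more Jchain UMIs, 4 with B cell or germinal centre-marked cells left out, 3 with no run term, and 3 to 28 with 1 library left out. With other-lineage cells left out control library 2 was the only control, so no count of calls is given for that fit. With the replicate number as a block in place of run, food allergy against control gave 4 calls, without Ighm, Iglc2, Ubald2 and Igkv12-44 (adjusted p = 0.0519 each) and Dusp5, Ly6d and mt-Nd1 (0.0633 each). Same-numbered libraries correlated at 0.0972, 0.147 and 0.247 and every other pair below 0, so each correlated best with its own number. This is at most a hint of pairing. The correlations are of deviations from the condition means, with no adjustment for run. Number 3 is the only nonTB library of run 7 in each condition, so run and number cannot be told apart for it. The labels state no pairing and not all 3 values exceed 0.1, so the block was kept as an alternative. The block left the share and IgA differences at 3.85 and -1.72. Dividing against non-dividing gave 2855 calls, against 1452 with other-lineage cells left out and 1119 with depth matched, both with fewer cells or genes tested, and 2258 to 2667 with 1 library left out; the interaction gave 18, against 2 with DESeq2, 10 with other-lineage cells left out and 11 to 16 with 1 library left out. The Peyer's patch fit gave 828, against 364 with DESeq2 and 180 to 1045 with 1 sum left out.

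Of the genes named in dividing against non-dividing nonTB cells, 71 of 92 called ones passed in every alternative. Reversed changes were Mcpt4 0.16, Cpa3 -0.02 and Col3a1 0.51 with DESeq2, Cma1 and Cpa3 at -2.26 each at 50 or more Jchain UMIs and with B cell or germinal centre-marked cells left out, Ighe -0.03 with other-lineage cells left out, and Hsp90b1 -0.02 with the IgDLow libraries added. With 1 library left out Cma1 ran between -2.46 and 2.47 and Cpa3 between -2.71 and 1.93, both lowest without food allergy library 3. Reversed interactions were Ighe -0.36 and Ighg1 0.13 with DESeq2, and Ighe -0.04, Ighg1 4.54 and Ighg2b 5.19 with other-lineage cells left out, where control library 2 was the only control. With 1 library left out the interaction ran between -7.25 and 0.33 for Ighg2c, -1.77 and 1.11 for Ighg1, -2.02 and 3.54 for Ighg2b, and -0.85 and 0.93 for Iglc1. Food allergy against control genes in the Peyer's patches were not run, since 1 run qualified, and the Peyer's patch fit was not run at 50 or more Jchain UMIs. The 42 control cells and 3 libraries a condition limit what the condition tests could detect.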

Other observations

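Chromatin and tubulin genes, which the gate selects for and which are given with no test, stood higher in dividing than in non-dividing nonTB cells for 15 of 15 (median log2 change 3.16). Lists of other lineages held calls in both directions there, where 32.6% of all genes tested were called. B cell identity genes gave 2 higher and 3 lower of 8 tested, MHC class II genes 1 and 2 of 10, and germinal centre genes 1 and 1 of 5. The higher B cell gene Ms4a1 (1.82) was not called with the 4 cells of high B cell and germinal centre UMIs and their non-dividing counterpart left out. Mast cell markers gave 2 higher and 3 lower of 8, innate lymphoid and T cell markers 0 and 2 of 3, myeloid and dendritic markers 0 and 3 of 8, and stromal and epithelial markers 0 and 3 of 4. The mast cell genes that were higher, Cma1 (1.69) and Cpa3 (0.89), rested on food allergy library 3, without which their changes were -2.46 and -2.71.

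Lambda light chain cells were rare among dividing plasmablasts, with 0 of 116 in food allergy, which allows up to 2.59%, and 2 of 42 in control. Among non-dividing nonTB cells 23 of 1523 (1.51%) in food allergy and 75 of 1449 (5.18%) in control were lambda cells.

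In dividing nonTB cells, none of the tested members of the chromatin, glycolysis, oxidative phosphorylation, nucleotide, heat shock, interferon, survival, B cell identity, MHC class II or stromal lists was called between food allergy and control. Over all 2749 genes tested 0.4% were called, and these lists had 1 to 15 tested members each, so 0 calls say little about them.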
